A study of Mus musculus with 39 samples.

Results

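The proteasome and immunoproteasome subunits were taken as every gene symbol made of Psma, Psmb, Psmc or Psmd and a number, which gave 39 of the 55011 symbols in the table. They held 8 alpha subunits and 7 constitutive beta subunits of the core particle, and 4 beta subunits of specialised core particles (Psmb8 to Psmb11). They also held 6 ATPases and 3 other subunits of the base of the regulatory particle, 8 subunits of its lid, and 3 chaperones that help to build it. Psmb8, Psmb9 and Psmb10 were set against Psmb5, Psmb6 and Psmb7, the subunits whose places they take.

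The study counted RNA reads per gene in 39 mouse libraries of 14 groups, to follow gamma-delta T cells and the cytokine IL-17A in muscle that regenerates after cardiotoxin, a snake venom toxin that destroys muscle fibres. Sorted Vg6+ T cells, a gamma-delta T cell subset, came from cardiotoxin-injured muscle at day 3 and from the colonic lamina propria of untreated mice, all wild-type, with 3 libraries each. Whole tibialis anterior muscle came from Tcrd-DTR mice (gamma-delta T cell-depleted, per the design text) and from wild-type mice at days 1, 3, 7 and 14 after cardiotoxin. Both genotypes had received intraperitoneal diphtheria toxin, and each group had 3 libraries except Tcrd-DTR at day 7, which had 2. Wild-type mice given rIL-17A or PBS, each by the intraperitoneal and intramuscular routes, gave 2 libraries each of tibialis anterior muscle at day 7 after cardiotoxin. Muscle satellite cells (the stem cells of muscle) were sorted at day 1 after cardiotoxin from Tcrd-DTR and wild-type mice, again all with diphtheria toxin, with 3 libraries each. Each sorted library was made from 1000 cells and each muscle library from 2 ng of RNA. The labels name no strain, sex or age.

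The proteasome degrades proteins tagged with ubiquitin: the regulatory particle binds and unfolds them, and the beta subunits inside the core cut them. Psmb5 carries the chymotrypsin-like activity, Psmb6 the caspase-like activity and Psmb7 the trypsin-like activity. In cells of the immune system, and in other cells exposed to interferon-gamma, Psmb8, Psmb9 and Psmb10 replace Psmb5, Psmb6 and Psmb7 to form the immunoproteasome, which is known for producing peptides for MHC class I. In muscle the proteasome is known for the breakdown of contractile proteins and for protein turnover while fibres are rebuilt.

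The promoters of 5 of the 6 exchanged subunits are printed because the results turn on them and their levels moved apart after injury. Each holds 250 bases before and 50 after the start site in RefSeq (GRCm38.p6), and Psmb7 is named only. Capitals mark matches, on either strand, to an interferon response core (GAAANNGAA), a gamma-activated site (TTCNNNGAA) or an antioxidant response core (TGANNNNGC, the motif family bound by Nfe2l1). The Psmb8 promoter is chr17:34197945-34198244 on the plus strand, and that of Psmb9 is chr17:34187281-34187580 on the minus strand. The Psmb10 promoter is chr8:105938343-105938642 on the minus strand, that of Psmb5 is chr14:54617946-54618245 on the minus strand, and that of Psmb6 is chr11:70525107-70525406 on the plus strand.
Psmb8: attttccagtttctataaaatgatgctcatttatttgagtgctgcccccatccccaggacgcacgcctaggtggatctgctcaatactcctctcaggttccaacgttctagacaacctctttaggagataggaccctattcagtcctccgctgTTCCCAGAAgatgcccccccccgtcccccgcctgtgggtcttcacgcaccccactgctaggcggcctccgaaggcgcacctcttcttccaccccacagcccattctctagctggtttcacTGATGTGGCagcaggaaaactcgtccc
Psmb9: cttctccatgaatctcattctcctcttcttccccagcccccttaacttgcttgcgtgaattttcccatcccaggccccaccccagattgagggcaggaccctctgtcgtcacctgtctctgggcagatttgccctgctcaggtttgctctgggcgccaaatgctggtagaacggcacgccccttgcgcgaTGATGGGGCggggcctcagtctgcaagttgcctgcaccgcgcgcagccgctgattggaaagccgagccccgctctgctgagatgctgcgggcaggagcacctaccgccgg
Psmb10: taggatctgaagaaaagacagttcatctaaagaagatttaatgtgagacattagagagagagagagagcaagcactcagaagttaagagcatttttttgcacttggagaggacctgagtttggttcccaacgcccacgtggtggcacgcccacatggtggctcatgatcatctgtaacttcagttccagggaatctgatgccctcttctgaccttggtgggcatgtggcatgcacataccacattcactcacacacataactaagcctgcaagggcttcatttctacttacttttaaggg
Psmb5: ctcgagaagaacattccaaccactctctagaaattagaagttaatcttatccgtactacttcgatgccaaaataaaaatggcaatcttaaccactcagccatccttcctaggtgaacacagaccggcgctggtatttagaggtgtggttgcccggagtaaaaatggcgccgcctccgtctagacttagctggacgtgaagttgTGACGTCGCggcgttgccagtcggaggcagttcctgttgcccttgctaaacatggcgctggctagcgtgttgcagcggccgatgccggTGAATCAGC
Psmb6: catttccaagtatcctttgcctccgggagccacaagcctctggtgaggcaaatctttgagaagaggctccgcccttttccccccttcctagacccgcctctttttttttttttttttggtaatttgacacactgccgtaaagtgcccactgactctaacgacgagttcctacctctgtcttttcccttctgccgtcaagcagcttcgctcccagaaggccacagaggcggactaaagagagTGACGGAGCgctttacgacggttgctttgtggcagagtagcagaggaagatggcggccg

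Of these promoters, that of Psmb8 held a gamma-activated site that began 97 bases before the RefSeq start site, and that of Psmb10 held none of the motifs. Antioxidant response cores began 47 bases before and 41 bases after the start site of Psmb5, 9 bases before that of Psmb6, 60 bases before that of Psmb9 and 23 bases after that of Psmb8. No match overlapped another in these promoters. Among the 32 members with a promoter entry, 5 held the interferon response core (Psmb3, Psmb4, Psmc2, Psmd4 and Psmd9), against 8.55% of all 32817 promoters. The gamma-activated site was in 2 members (Psmb8 and Psmd2), against 8.29% of all promoters, and the antioxidant response core was in 19 members, against 41.3%. A match describes letters in the window and is not a bound site.

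In mm10, Psmb8 (chr17:34197721-34201454) and Psmb9 (chr17:34181987-34187764) both lie within 10 kb of Tap1, which carries peptides into the endoplasmic reticulum for MHC class I. Tap2 lies within 10 kb of Psmb8. The promoter windows printed above for Psmb8 and Psmb9 lie wholly inside these annotated genes. Their RefSeq start sites thus lie downstream of the annotated gene starts, and the sequence before those starts is not in the windows. The annotated Psmb9 gene overlaps Tap1 on the opposite strand. Psmb8, Psmb10 and Psmd3 each overlap an opposite-strand gene named only by a number (Gm20496, Gm16156 and Gm12356), and Psmb7 overlaps Nek6. The sources used here do not say whether counting used strand, so reads in these overlaps cannot be assigned with certainty.

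Libraries held 2372139 to 10974862 counts, and the 39 members together took 0.510% to 1.08% of them. In counts per 1000000 of the column total (CPM), the members summed to 0.588% of all counts in muscle Vg6 cells and 0.595% in colon Vg6 cells. They summed to between 0.904% and 0.942% in the groups of whole muscle at days 1 and 3 and to 1.02% and 1.08% in Tcrd-DTR and wild-type satellite cells. Log2 changes below come from edgeR, which scales libraries by the bulk of their genes (TMM), so they can differ from ratios of CPM where a few very abundant fibre transcripts fill a library. A gene is called higher or lower at a Benjamini-Hochberg adjusted p under 0.05 over all genes tested.

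Of the 39 libraries 3 stood apart from their groups. Replicate 2 of Tcrd-DTR muscle at day 1 had counts in 35394 genes and replicate 3 of wild-type muscle at day 7 in 34392, and both were high in transcripts of olfactory and vomeronasal receptors, at 2879.6 and 1383 CPM. Replicate 1 of the Tcrd-DTR satellite cells held 3138 CPM of myofibre markers, against 30.2 to 38.8 CPM in the other satellite cell libraries. Counts of calls that rest on them are also given without them. Replicate 2 of wild-type muscle at day 3 was not among these 3 libraries. It held 1525 CPM of olfactory and vomeronasal receptor transcripts, against 315 and 797 CPM in the rest of its group. In whole muscle the summed gamma-delta T cell markers were 0 to 1.1 CPM in Tcrd-DTR and 4.15 to 5.31 CPM in wild-type mice at day 3, and 0 to 0.182 CPM against 0.107 to 2.64 CPM at day 7. At day 1 they were 0.378 to 1.85 CPM against 0.677 to 1.22 CPM, and at day 14 they were 0.41 to 1.05 CPM against 1.64 to 2.43 CPM, so the genotypes overlapped at days 1 and 7.

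The balance between immunoproteasome and constitutive catalytic subunits set the sorted T cells apart from all other groups. Per kilobase of each gene's longest annotated transcript, Psmb8, Psmb9 and Psmb10 made up 55.7% ± 1.51 of the summed level of the 6 exchanged subunits in muscle Vg6 cells and 63.1% ± 1.49 in colon Vg6 cells (SD, n = 3 each). Muscle at day 3 had the next highest shares, 15.04% ± 0.223 in Tcrd-DTR and 16.8% ± 2.18 in wild-type mice, whose ranges overlapped. Muscle at day 1 followed, with 8.07% ± 3.11 in Tcrd-DTR and 8.19% ± 1.22 in wild-type mice. The Tcrd-DTR libraries of day 1 spread from 6.25% to 11.7%, with replicate 2 highest.

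All other groups had shares between 3.14% and 5.36%. Satellite cells had 5.36% ± 0.214 in Tcrd-DTR and 4.69% ± 0.533 in wild-type mice, and muscle had 4.95% ± 0.910 with rIL-17A and 4.77% ± 0.481 with PBS (SD, n = 2 each). At day 7 Tcrd-DTR muscle had 4.62% ± 0.801 (n = 2) and wild-type muscle 3.48% ± 0.507, and at day 14 the shares were 3.14% ± 0.534 in Tcrd-DTR and 3.27% ± 1.24 in wild-type muscle. In this order of group means, neighbouring groups did not overlap at 5 places: between colon and muscle Vg6 cells, between muscle Vg6 cells and wild-type muscle at day 3, between Tcrd-DTR muscle at day 3 and wild-type muscle at day 1, between Tcrd-DTR muscle at day 1 and Tcrd-DTR satellite cells, and between Tcrd-DTR and wild-type muscle at day 7. The shares are descriptions with no test.

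**Figure D1:**
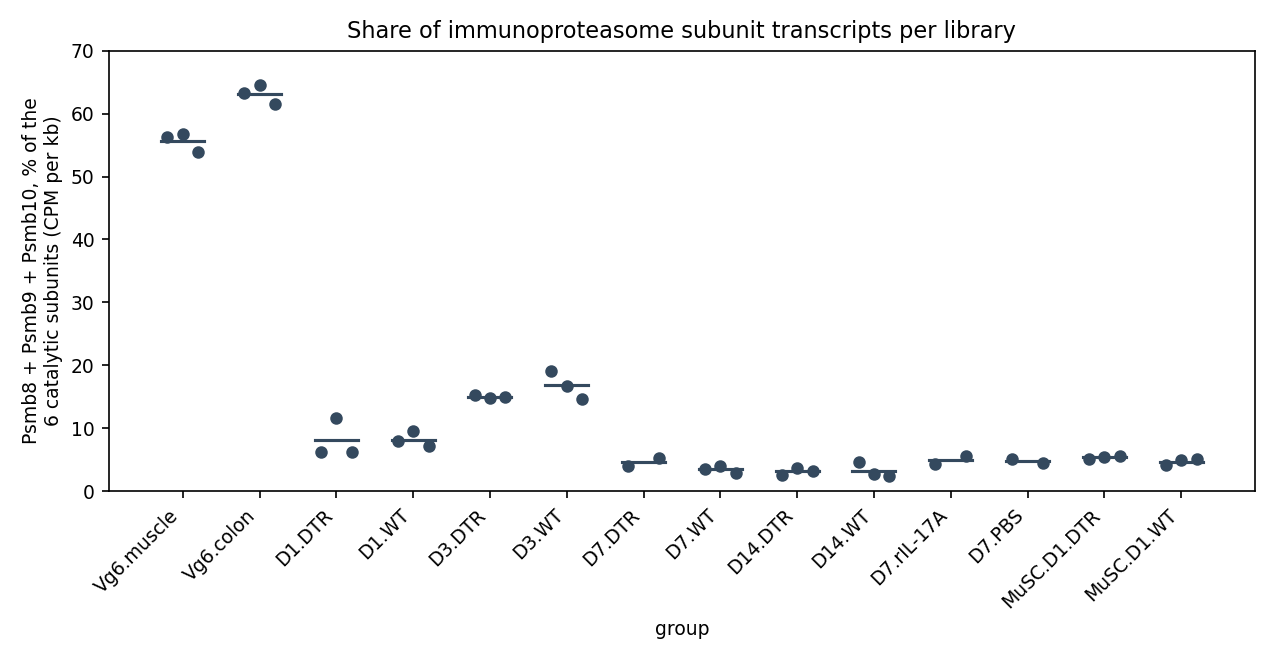
Share of Psmb8, Psmb9 and Psmb10 in the summed level per kilobase of the 6 exchanged subunits, in percent (y axis), in the 14 groups (x axis, where D stands for day, DTR for Tcrd-DTR, WT for wild-type and MuSC for satellite cells). Each dot is 1 library and each bar the group mean: Vg6 cells lie at or above 53.9%, muscle at day 3 lies between 14.7% and 19.1%, and all other libraries lie at or below 11.7%.

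The 3 exchanged pairs differed in how far the balance went. On the log2 scale per kilobase, Psmb8 exceeded Psmb5 in the 6 Vg6 libraries, by 1.41 to 1.55 in muscle and 2.24 to 2.49 in colon cells, and in no other library. Psmb10 exceeded Psmb7 in Vg6 cells (2.33 to 2.51 in muscle, 2.25 to 2.84 in colon). On this scale it also did so in muscle at day 3, by 0.16 to 0.44 in Tcrd-DTR and 0.46 to 0.97 in wild-type mice. The day 3 excess rested on length scaling, with longest transcripts of 1311 bases for Psmb10 and 2849 for Psmb7 (longest coding lengths 819 and 831). In CPM Psmb10 lay below Psmb7 in every day 3 library, at 71.9 to 109.7 CPM against 121 to 144 CPM. Psmb9 lay below Psmb6 in every library, least in colon Vg6 cells (-2.32 to -2.01) and most in satellite cells, where the lowest difference was -8.74. The size of this gap also depends on the lengths used (longest transcripts 2884 and 966 bases). In CPM the colon Vg6 libraries had 132 to 157 for Psmb9 and 204 to 221 for Psmb6.

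Vg6 cells of injured muscle were compared with Vg6 cells of the colon. Muscle cells had lower transcript levels of the immunoproteasome subunits Psmb8 and Psmb9, and higher levels of Psmb5, the constitutive partner of Psmb8, and of Psmd8, a lid subunit. Of 37 members tested 2 were called higher, against 12.3% of all genes, and 6 lower, against 12.2% of all genes. The median log2 change of the members was -0.03 and that of all genes was -0.01. Because the muscle was injured and the colon was not, tissue, injury and handling cannot be told apart.

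Psmb9 had 73.2, 68.1 and 67.5 CPM in muscle Vg6 cells, against 142, 157 and 132 CPM in colon Vg6 cells. All muscle libraries were below all colon libraries, with a log2 change of -1.08 ± 0.11 (SE), adjusted p = 5.95e-06. Psmb8 had 587, 571 and 538 CPM in muscle cells, against 682, 774 and 705 CPM in colon cells. Again the groups did not overlap, with a log2 change of -0.38 ± 0.08 (SE), adjusted p = 0.00225. Psmb10 was at 125, 139 and 124 CPM in muscle cells, against 139, 153 and 135 CPM in colon cells. The groups overlapped and it was not called (log2 change -0.16, adjusted p = 0.281).

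Psmb5 went the other way. It had 104, 92.1 and 95.6 CPM in muscle Vg6 cells, against 57.4, 73.5 and 70.3 CPM in colon Vg6 cells, and every muscle library was above every colon library (log2 change of 0.50 ± 0.13 (SE), adjusted p = 0.00983). Psmb6 and Psmb7 were not called, with log2 changes of -0.11 (adjusted p = 0.390) and -0.04 (adjusted p = 0.898). Psmd8 had 297, 297 and 308 CPM in muscle cells, against 195, 181 and 217 CPM in colon cells, with no overlap (log2 change of 0.57 ± 0.09 (SE), adjusted p = 0.000207).

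The other 4 called members were lower by less: the lid deubiquitinase Psmd14 with a log2 change of -0.32, the ATPase Psmc6 with -0.34, the alpha subunit Psma6 with -0.31 and the lid subunit Psmd12 with -0.30. Scaling by library size alone ended these 4 calls and gave 3 members higher and 2 lower. Leaving out replicate 2 of the colon cells left 4 calls, leaving out replicate 2 of the muscle cells left 5, and leaving out replicate 3 of the muscle cells left 4.

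**Figure D2:**
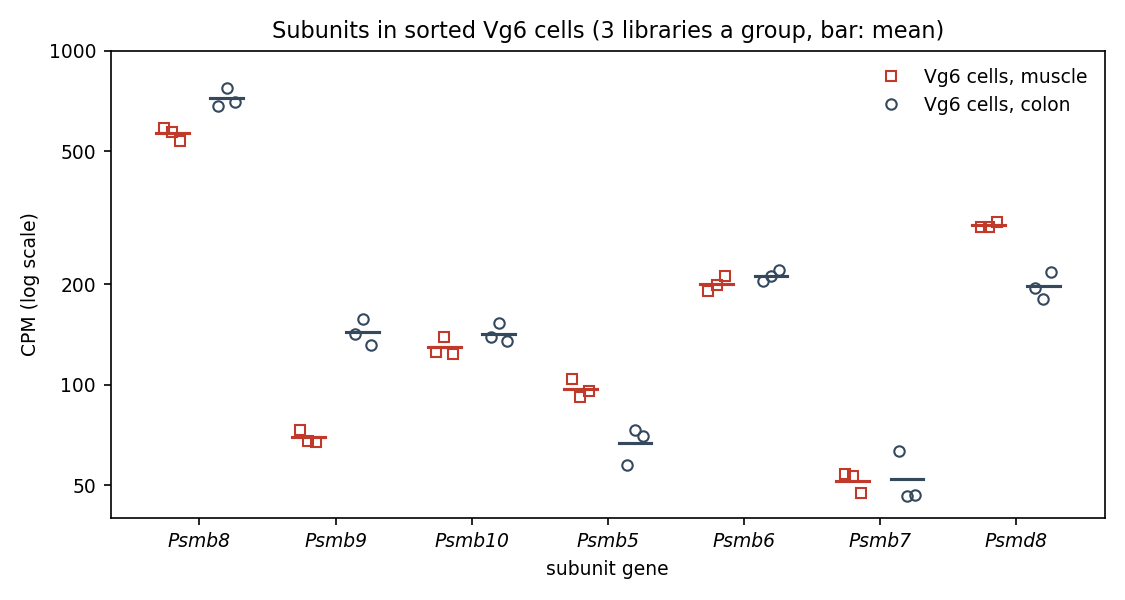
Level in CPM (log y axis) of Psmb8, Psmb9 and Psmb10, of Psmb5, Psmb6 and Psmb7 and of Psmd8 in Vg6 cells (genes on the x axis), with muscle cells as red squares left of colon cells as dark circles, 1 point per library and a bar at the mean. Psmb8 and Psmb9 lie lower in the muscle libraries and Psmb5 and Psmd8 lie higher, while Psmb10, Psmb6 and Psmb7 overlap.

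Genes around the immunoproteasome were also lower in muscle Vg6 cells. The subunits of the PA28 activator, which caps immunoproteasomes, averaged 289.9 ± 25.0 CPM in the muscle libraries and 347 ± 14.5 CPM in those from colon for Psme1, and 241 ± 10.2 and 289.8 ± 10.4 CPM for Psme2 (SD, n = 3 each). Both were called (adjusted p = 0.0256 and 0.0169), over alternatives with adjusted p of 0.0178 to 0.110 and 0.0146 to 0.0661. Psme1 was not called without replicate 1 or 2 of the muscle cells or replicate 3 of the colon cells, nor Psme2 without replicate 1 or 2 of the muscle cells or replicate 2 of the colon cells. Of 10 genes of MHC class I presentation 7 were called lower and none higher. They included the class I heavy chain H2-K1 (a mean of 3876 CPM in muscle cells, against 7392 CPM in those of the colon, log2 change -0.96), B2m (-0.76), H2-D1 (-0.52) and Nlrc5, the transcriptional activator of class I genes (-0.93).

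Of 10 genes of the interferon response 5 were called lower and 2 higher. Irf1, an interferon-induced transcription factor, averaged 135 CPM in muscle cells, against 298 CPM in those of the colon (log2 change -1.17), and Ifngr1, a chain of the interferon-gamma receptor, had a log2 change of -2.29. Ifng, which encodes interferon-gamma, had no count in the muscle Vg6 libraries and averaged 4.98 CPM in the colon Vg6 libraries. The ubiquitin gene Ubb was lower too, with a log2 change of -1.23. Leukocyte markers summed to 9129 to 9644 CPM in muscle cells and 7884 to 8713 CPM in colon cells, with 3 of 5 called higher and 1 lower. Gamma-delta T cell markers summed to 5425 to 5685 CPM in muscle cells and 3716 to 3942 CPM in colon cells, with 4 of 5 called higher. Macrophage markers summed to 4.43 to 18.1 CPM and 8.21 to 17.9 CPM, and myofibre markers to 9.5 to 14.4 CPM and 6.09 to 8.92 CPM. B cell markers summed to 117 to 158 CPM in muscle cells and 44.6 to 55.8 CPM in colon cells. Endothelial markers were at 149 to 161 CPM and 78.9 to 82.1 CPM, and epithelial markers at 5.71 to 6.65 CPM and 11.5 to 21.4 CPM. The part of these differences in the results was not tested.

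In whole muscle after injury the immunoproteasome subunits peaked at day 3 and the constitutive catalytic subunits Psmb5 and Psmb6 at day 7. In wild-type muscle Psmb9 was at 9.93, 11.8 and 12.4 CPM at day 1, 55.7, 58.0 and 43.6 CPM at day 3, 8.82, 12.1 and 6.34 CPM at day 7 and 11.5, 6.27 and 3.34 CPM at day 14. Psmb8 was at 52.8, 61.8 and 41.6 CPM at day 1, 189, 154 and 127 CPM at day 3, 26.6, 27.0 and 18.9 CPM at day 7 and 13.3, 10.4 and 8.20 CPM at day 14. Psmb10 was at 47.6, 49.0 and 33.1 CPM at day 1, 109.7, 87.5 and 91.1 CPM at day 3, 32.4, 33.5 and 22.1 CPM at day 7 and 24.0, 12.8 and 11.5 CPM at day 14. For each of these genes every day 3 library lay above every library of the other days.

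Psmb5 was at 219, 177 and 179 CPM at day 1, 202, 195 and 208 CPM at day 3, 273, 299.9 and 298 CPM at day 7 and 137, 158 and 162 CPM at day 14. Psmb6 was at 483, 439.7 and 411 CPM at day 1, 570.4, 556 and 574 CPM at day 3, 753, 668 and 561 CPM at day 7 and 389, 394 and 351 CPM at day 14. Psmb7 stayed within a narrow band, from 109 CPM at day 14 to 144 CPM at day 3. Day 7 was highest for Psmb5 without overlap, whereas for Psmb6 days 3 and 7 overlapped.

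**Figure D3:**
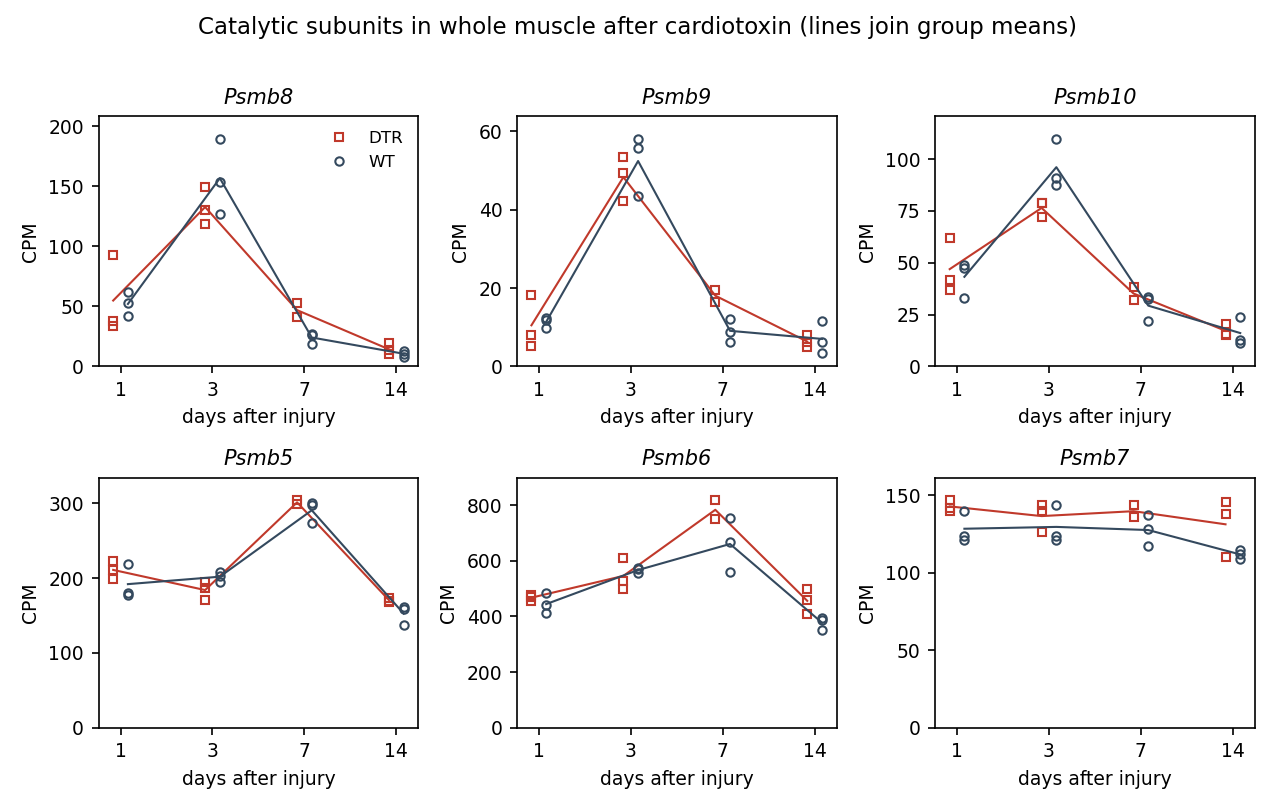
Level in CPM (y axis) of the 6 exchanged catalytic subunits in whole muscle at days 1, 3, 7 and 14 after cardiotoxin (x axis, evenly spaced), with Tcrd-DTR as red squares left of wild-type as dark circles. Points are libraries and lines join group means: Psmb8, Psmb9 and Psmb10 are highest at day 3, and Psmb5 and Psmb6 have their highest means at day 7.

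At day 3 against day 1 in wild-type muscle, 13 of 38 members passed the test. The 3 immunoproteasome subunits were called higher, against 9.58% of all genes, and 10 subunits of the regulatory particle were called lower, against 9.36%. Psmb9 rose with a log2 change of 1.80 ± 0.32 (SE), adjusted p = 6.92e-05, and Psmb8 with a log2 change of 1.20 ± 0.25 (SE), adjusted p = 0.000482. Psmb10 rose with a log2 change of 0.76 ± 0.24 (SE), adjusted p = 0.0196, and its adjusted p ranged from 0.000510 to 0.121 over the alternatives, with the call lost without replicate 3 of day 1 or replicate 1 of day 3. No alpha subunit and no constitutive beta subunit was called, and Psmb5, Psmb6 and Psmb7 had log2 changes of -0.33 (adjusted p = 0.245), -0.05 (adjusted p = 0.917) and -0.38 (adjusted p = 0.164).

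The members that fell were 5 of 8 lid subunits, 3 of 3 base subunits without ATPase activity and 2 of 6 ATPases. Psmd8 was at 526, 477 and 478 CPM at day 3, against 1066, 962 and 837 CPM at day 1, and did not overlap (log2 change of -1.35 ± 0.20 (SE), adjusted p = 4.26e-06). Psmd11, a lid subunit, was at 225, 232 and 252 CPM at day 3, against 486, 435 and 403 CPM at day 1, again without overlap (log2 change of -1.30 ± 0.20 (SE), adjusted p = 6.89e-06). The other named members that fell were Psmd7, the lid partner of Psmd14 (log2 change -0.93), the base scaffold Psmd1 (-0.76), the ubiquitin receptor Psmd4 (-0.70) and the ATPase Psmc2 (-0.68). Over the alternatives Psmd4 had an adjusted p of 0.00129 to 0.141 and Psmc2 of 0.000186 to 0.152. Psmd4 was lost without replicate 1 of day 1, and Psmc2 without replicate 2 of day 3.

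With library size alone as the scale, the median of all genes moved to 0.40 and the members split into 7 called higher and 3 lower. Psmb8, Psmb9 and Psmb10 were still called higher there, and Psmd8, Psmd11 and Psmd7 lower, with log2 changes of -0.95, -0.90 and -0.53. Leaving out replicate 1 of day 1, replicate 1 of day 3 or replicate 2 of day 3 left 8 calls each.

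**Figure D4:**
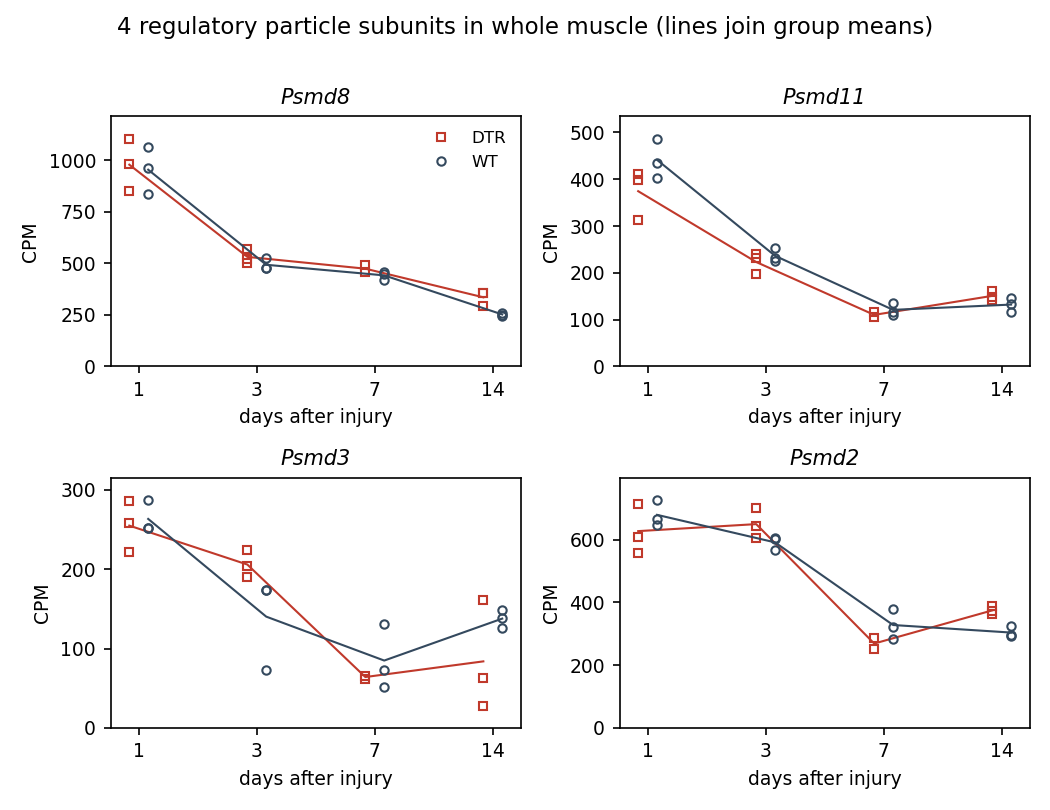
Level in CPM (y axis) of the regulatory particle subunits Psmd8, Psmd11, Psmd3 and Psmd2 in whole muscle at days 1, 3, 7 and 14 after cardiotoxin (x axis, evenly spaced), with Tcrd-DTR as red squares left of wild-type as dark circles and lines through group means. Psmd8 and Psmd11 are highest at day 1, where Psmd8 lies between 837 and 1104 CPM.

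Genes linked to the immunoproteasome were called in the same comparison. Psme1 averaged 129 ± 27.9 CPM at day 3 and 58.1 ± 10.2 CPM at day 1, and Psme2 averaged 126 ± 14.6 and 59.1 ± 4.95 CPM (SD, n = 3 each), with log2 changes of 0.75 and 0.70. Psme1 had an adjusted p of 0.000186 to 0.0569 and Psme2 of 0.000481 to 0.0879 over the alternatives. Both lost their call without replicate 1 of day 3, and Psme2 also without replicate 3 of day 1. MHC class I genes were called higher in 7 of 10 cases, among them Nlrc5 (1.80), B2m (1.74), H2-K1 (1.11) and H2-D1 (1.02). Interferon response genes were called higher in 8 of 9 tested cases, among them Ifit3 (2.34) and Irf1 (1.24), while Ifng had no count on either day. Ubb, with 259 ± 18.2 CPM at day 3 and 554 ± 65.0 CPM at day 1, fell with a log2 change of -1.50. Nfe2l1, the transcription factor known to raise proteasome genes when proteasome activity is limiting, averaged 281 ± 62.2 CPM at day 3 and 427 ± 35.6 CPM at day 1 (log2 change of -1.0 ± 0.24 (SE), adjusted p = 0.00199).

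Markers of cell types moved on the same days. At day 3 against day 1 leukocyte markers were called higher in 5 of 5 cases (1314 to 1944 CPM summed, against 259.6 to 632 CPM) and macrophage markers in 6 of 6 (7222 to 12159 CPM, against 932 to 2183 CPM). Myofibre markers were called lower in 5 of 6 cases, with 20896 to 66183 CPM at day 3 and 94771 to 119174 CPM at day 1. In whole muscle, fewer cells of a type and less RNA per cell cannot be told apart, and the part of these shifts in the subunit changes was not tested.

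At day 7 against day 3 in wild-type muscle the immunoproteasome subunits fell and most constitutive subunits were called higher. Of 38 members 21 were called higher, against 17.9% of all genes, and 3 lower, against 19% of all genes. The members that fell were Psmb8 (log2 change of -1.88 ± 0.25 (SE), adjusted p = 1.74e-07), Psmb9 (log2 change of -1.70 ± 0.32 (SE), adjusted p = 3.79e-05) and Psmb10 (log2 change of -0.90 ± 0.24 (SE), adjusted p = 0.00253). Psmb5 rose with a log2 change of 1.32 ± 0.19 (SE), adjusted p = 4.62e-07. Psmb6 had a log2 change of 1.03 (adjusted p = 0.000101), and Psmb7 of 0.77 (adjusted p = 0.000950). The calls took in 6 of 7 constitutive beta subunits, 3 of 8 alpha subunits, 5 of 6 ATPases and 5 of 8 lid subunits.

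The other rises with the smallest p were in the ATPases Psmc5 and Psmc1 (log2 changes 1.16 and 1.18), the alpha subunit Psma3 (1.15) and the lid subunits Psmd12 (1.17) and Psmd6 (1.05). Without replicate 1 of day 7 there were 13 members called higher and 3 lower, with a median log2 change of 0.32 against 0.52 with all libraries, and no filter on low counts gave 13 and 3 too. Without replicate 3 of day 7, which stood apart, 24 were called higher and 4 lower. The rises depended on the scale. With library size alone the median of all genes was -0.74, and 3 members were called higher (Psmb5 at 0.52, Psmc1 at 0.36 and Psmc5 at 0.35) and 13 lower, while Psmb7 changed sign to -0.02. Psmb8, Psmb9 and Psmb10 were called lower on that scale too, at -2.70, -2.52 and -1.71. Myofibre markers were called higher in 6 of 6 cases, at 136929 to 165503 CPM at day 7 and 20896 to 66183 CPM at day 3. Macrophage markers were called lower in 6 of 6 cases (338 to 554 CPM at day 7) and leukocyte markers in 5 of 5 (79.6 to 122 CPM at day 7), and their part in the changes was not tested. All 10 MHC class I genes were called lower, with Tap1 at 15.9 ± 3.75 CPM at day 7 and 117 ± 5.76 CPM at day 3 (SD, n = 3 each), and Psme1 fell with a log2 change of -0.79.

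At day 14 against day 7 in wild-type muscle 29 of 38 members were called lower, against 13.2% of all genes, and none higher, against 4.14%. Their median log2 change was -0.78, against -0.03 for all genes. All 3 chaperones of the regulatory particle were among them, led by Psmd10 with 10.5, 12.8 and 10.6 CPM at day 14, against 41.2, 41.6 and 25.5 CPM at day 7. All day 14 libraries were lower (log2 change of -1.83 ± 0.27 (SE), adjusted p = 9.26e-06). Psmb5 (-1.06), Psmb6 (-0.95) and Psmb8 (-1.33) fell as well, as did the ATPase Psmc1 (-1.27) and the core subunits Psmb3 (-1.05), Psma3 (-1.09) and Psmb2 (-0.99). Psmb10 had a log2 change of -1.01, with adjusted p of 0.000405 to 0.0647 over the alternatives, and lost its call without replicate 3 of day 14. Psmb7 (-0.32, adjusted p = 0.249) and Psmb9 (-0.51, adjusted p = 0.340) were not called.

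Pomp, the factor that matures the core particle, averaged 111 ± 14.8 CPM at day 14 and 219.9 ± 30.0 CPM at day 7 (SD, n = 3 each) and fell with a log2 change of -1.13. Olfactory and vomeronasal receptor transcripts summed to 1578 to 1844 CPM at day 14 and 267 to 1383 CPM at day 7. Macrophage markers summed to 99.2 to 127 CPM at day 14 and 338 to 554 CPM at day 7. Leukocyte markers were at 28.6 to 39.5 CPM and 79.6 to 122 CPM, while myofibre markers overlapped. Libraries held 3293231 to 3997486 counts at day 14 and 7031474 to 9309783 at day 7. The part of these values was not tested. Without replicate 1 of day 7 there were 18 calls. Without replicate 3 of day 7, a library that stood apart, there were 29 lower and 1 higher.

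In Tcrd-DTR muscle the means of Psmb8, Psmb9 and Psmb10 were also highest at day 3 and those of Psmb5 and Psmb6 at day 7, while the order of the other days differed for Psmb5 and Psmb9. At day 3 against day 1, 2 of 38 members were called higher, against 8.48% of all genes, and 2 lower, against 5.85%. Psmb9 was at 49.4, 42.2 and 53.3 CPM at day 3, against 7.99, 18.2 and 5.30 CPM at day 1, and rose with a log2 change of 2.07 ± 0.33 (SE), adjusted p = 1.44e-05. Psmb8 was at 130.0, 119 and 149.7 CPM at day 3, against 38.1, 92.8 and 33.9 CPM at day 1, and rose with a log2 change of 1.13 ± 0.25 (SE), adjusted p = 0.00120. In both genes replicate 2 was the highest library of day 1 and still lay below every day 3 library.

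Psmd8 (-1.12) and Psmd11 (-1.02) fell, and Psmb10 was not called (0.51, adjusted p = 0.160). Without replicate 2 of day 1, the library with the most genes detected, 2 members were called higher and 10 lower. Library size alone gave 4 higher and 2 lower, with the median of all genes at 0.12, against -0.10 in edgeR with TMM. DESeq2's size factors gave 2 higher and 4 lower. Macrophage markers summed to 6586 to 8064 CPM at day 3 and 770 to 1891 CPM at day 1. Leukocyte markers were at 1206 to 1413 CPM and 240 to 665 CPM, and myofibre markers at 46223 to 60835 CPM and 62254 to 101442 CPM. The part of these shifts was not tested.

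At day 7 against day 3 in Tcrd-DTR muscle 28 of 38 members were called higher, against 17.1% of all genes, and 1 lower, against 18.4%. That member was Psma8, a testis-type alpha subunit with no count in either Tcrd-DTR library of day 7, and without either of these libraries no member was called lower. The rises with the smallest p were in Psmb5 (1.70), Psmc1 (1.49), Psmb6 (1.52), Psmd12 (1.56), Psmd6 (1.44) and the ATPase Psmc3 (1.52). With library size alone 6 members were called higher and 9 lower, and the median of all genes was -1.20, against -0.22 with TMM. Psmb8, Psmb9 and Psmb10 were not called, with log2 changes of -0.52 (adjusted p = 0.136), -0.44 (adjusted p = 0.330) and -0.14 (adjusted p = 0.720). In CPM all day 7 libraries lay below all day 3 libraries for these genes, with Psmb8 at 41.3 and 52.7 CPM at day 7, against 130.0, 119 and 149.7 CPM at day 3. Macrophage markers summed to 331 to 1305 CPM at day 7 and 6586 to 8064 CPM at day 3. Leukocyte markers were at 63.2 to 189 CPM and 1206 to 1413 CPM, and myofibre markers at 176149 to 186443 CPM and 46223 to 60835 CPM. The part of these shifts was not tested.

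At day 14 against day 7 in Tcrd-DTR muscle 31 members were called lower, against 19.7% of all genes, and 1, Psma8, higher, against 14.6%. Without either Tcrd-DTR library of day 7, in which Psma8 had no count, no member was called higher. Psmb8 was at 10.1, 19.4 and 13.3 CPM at day 14, against 41.3 and 52.7 CPM at day 7. The groups did not overlap (log2 change of -2.10 ± 0.29 (SE), adjusted p = 1.76e-06). Psmb9 (-1.89), Psmb10 (-1.38), Psmd10 (-2.0), Psma4 (-1.33), Psmb1 (-1.41) and Psmd14 (-1.47) fell too, and Psmb7 was not called (-0.48, adjusted p = 0.0635). With library size alone the median of all genes was 0.41, against 0.02 with TMM. Olfactory and vomeronasal receptor transcripts summed to 1439 to 1997 CPM at day 14 and 92.1 to 146 CPM at day 7. Macrophage markers summed to 97.2 to 236 CPM at day 14 and 331 to 1305 CPM at day 7. Leukocyte markers were at 38.5 to 56.5 CPM and 63.2 to 189 CPM, and myofibre markers at 146146 to 151429 CPM and 176149 to 186443 CPM. Libraries held 2372139 to 4877576 counts at day 14 and 9548065 to 10974862 at day 7. The part of these values was not tested.

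Tcrd-DTR and wild-type muscle were then compared at each day, which addresses what depletion of gamma-delta T cells changes. At days 1 and 3 no member was called by edgeR, where 0% of all genes were called on either day. No member had an unadjusted p under 0.05 on these days, against 777 and 873 of all 18264 genes, and DESeq2 called none. At day 3, the peak of the immunoproteasome subunits, Psmb8 was at 130.0, 119 and 149.7 CPM in Tcrd-DTR muscle, against 189, 154 and 127 CPM in wild-type muscle, with a log2 change of -0.20. Psmb10 was at 78.6, 71.9 and 78.8 CPM in Tcrd-DTR muscle, against 109.7, 87.5 and 91.1 CPM in wild-type muscle, with a log2 change of -0.30. The genotypes overlapped for Psmb8 and not for Psmb10.

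At day 7, 3 members were called higher in Tcrd-DTR muscle, against 0.641% of all genes, and none lower, against 1.37% of all genes. Psmb8 was at 41.3 and 52.7 CPM in Tcrd-DTR muscle, against 26.6, 27.0 and 18.9 CPM in wild-type muscle. The groups did not overlap (log2 change of 1.16 ± 0.27 (SE), adjusted p = 0.0187). The ATPase Psmc2 was at 219 and 229.8 CPM in Tcrd-DTR muscle, against 163, 132 and 144 CPM in wild-type muscle (log2 change of 0.84 ± 0.21 (SE), adjusted p = 0.0250). The lid deubiquitinase Psmd14 was at 189.7 and 197 CPM in Tcrd-DTR muscle, against 145, 104 and 139.6 CPM in wild-type muscle (log2 change of 0.81 ± 0.22 (SE), adjusted p = 0.0414). For both, every Tcrd-DTR library was above every wild-type library.

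Psmb9 missed the threshold, with 16.5 and 19.6 CPM in Tcrd-DTR muscle, against 8.82, 12.1 and 6.34 CPM in wild-type muscle (log2 change 1.19, adjusted p = 0.0574). Psmb10, Psmb5, Psmb6 and Psmb7 were not called either, with log2 changes of 0.46, 0.28, 0.46 and 0.37 and adjusted p of 0.315, 0.439, 0.235 and 0.299. Of the 38 members tested 35 had log2 changes above 0, with a median of 0.51 against -0.02 for all genes. An unadjusted p under 0.05 was found for 23 of the 38 members and for 3782 of all 18264 genes. With library size alone the median of the members was 0.28 and that of all genes -0.25, 31 members lay above 0 and 1, Psmc2, was called.

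The calls at day 7 rested on single libraries and on the fit. With the replicate block no member was called (smallest adjusted p = 0.100), and in a fit of that day alone none was (smallest adjusted p = 0.0619). Without replicate 3 of wild-type muscle, which stood apart, no member was called, and without replicate 2 of Tcrd-DTR muscle none was. Without replicate 1 of Tcrd-DTR muscle 1 was called, and without replicate 1 of wild-type muscle 6 were. Over the alternatives adjusted p ranged from 0.00309 to 0.175 for Psmb8, from 0.00144 to 0.150 for Psmc2 and from 0.0148 to 0.190 for Psmd14, and Psmc2 and Psmd14 were also not called without replicate 2 of wild-type muscle. DESeq2 called 7. Ddi2, the protease that activates Nfe2l1, averaged 18.6 ± 0.303 CPM in Tcrd-DTR muscle (SD, n = 2) and 41.8 ± 3.94 CPM in wild-type muscle (SD, n = 3). It had a log2 change of -0.93 ± 0.25 (SE), adjusted p = 0.0395, over alternatives with adjusted p of 0.00230 to 0.334, and lost its call without either Tcrd-DTR library or without replicate 1 or 3 of wild-type muscle.

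Marker sums at day 7 overlapped between the genotypes for macrophages (331 to 1305 CPM in Tcrd-DTR, 338 to 554 CPM in wild-type muscle) and leukocytes (63.2 to 189 CPM and 79.6 to 122 CPM), and none of the 6 macrophage and 5 leukocyte markers was called. Myofibre markers summed to 176149 to 186443 CPM in Tcrd-DTR and 136929 to 165503 CPM in wild-type muscle. Olfactory and vomeronasal receptor transcripts summed to 92.1 to 146 CPM and 267 to 1383 CPM. The part of these values in the result was not tested.

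At day 14 no member was called by edgeR or DESeq2, where edgeR called 0.0767% of all genes. Of 38 members 36 had log2 changes above 0 in Tcrd-DTR against wild-type muscle, with a median of 0.25 against 0.01 for all genes. An unadjusted p under 0.05 was found for 1 member and for 1045 of all 18264 genes. Psmb6 was at 459.9, 409 and 499 CPM in Tcrd-DTR muscle, against 389, 394 and 351 CPM in wild-type muscle, with a log2 change of 0.25 and an adjusted p of 1. The lid subunit Psmd3, named after its values were seen, was scattered, with 161, 62.4 and 28.1 CPM in Tcrd-DTR muscle, against 138, 126 and 149 CPM in wild-type muscle.

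Whether the course over days differed by genotype was tested as an interaction. No member was called by edgeR, where 0.608% of all genes were. An unadjusted p under 0.05 was found for 6 of 38 members and for 2467 of all 18264 genes. The smallest adjusted p was 0.127, for Psmb8. DESeq2 called 2 members, and edgeR called 1 without replicate 2 of Tcrd-DTR muscle at day 1.

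Muscle treated with rIL-17A was compared with muscle treated with PBS at day 7, which addresses what added IL-17A changes in regeneration. Most proteasome subunits had lower transcript levels with rIL-17A, mainly in the core and the ATPases of the base. Of the other base subunits, the lid and the chaperones only some were called lower, and the lid subunit Psmd3 was higher. Of 37 members 27 were called lower, against 16.1% of all genes, and 1 higher, against 18.1% of all genes. Their median log2 change was -0.96, against 0.05 for all genes, and -0.81 against 0.20 with library size alone.

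The core particle fell in nearly all its parts. All 7 alpha subunits tested were called lower, and the alpha subunits summed to 1069 to 1107 CPM with rIL-17A, against 1786 to 2083 CPM with PBS. Of the 7 constitutive beta subunits 5 were called lower, with sums of 1218 to 1241 CPM against 2194 to 2493 CPM. The core subunit Psmb3 was at 79.4 and 84.2 CPM with rIL-17A, against 214 and 188 CPM with PBS (log2 change of -1.44 ± 0.20 (SE), adjusted p = 0.000316). Both rIL-17A libraries lay below both PBS libraries, as they did for Psmb4 (-1.30) and Psmb2 (-1.25).

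Among the catalytic subunits Psmb6 was at 373 and 376 CPM with rIL-17A, against 859 and 774 CPM with PBS, and fell with a log2 change of -1.27 ± 0.20 (SE), adjusted p = 0.000575. Psmb5 was at 196 and 212 CPM with rIL-17A, against 273 and 253 CPM with PBS, and was not called (-0.51, adjusted p = 0.0530). Psmb7 was at 111 and 103 CPM with rIL-17A, against 123 and 123 CPM with PBS, and was not called (-0.35, adjusted p = 0.212). In each of these genes the groups did not overlap, which says little with 2 libraries a group. The share of all genes without overlap was not counted.

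Of the 3 immunoproteasome subunits 2 were called lower. Psmb8 was at 28.1 and 35.4 CPM with rIL-17A, against 67.7 and 43.6 CPM with PBS (log2 change of -0.96 ± 0.26 (SE), adjusted p = 0.0141). Psmb10 was at 15.1 and 21.7 CPM with rIL-17A, against 33.6 and 33.0 CPM with PBS (log2 change of -1.02 ± 0.29 (SE), adjusted p = 0.0157). Both were lower without overlap. Over the alternatives adjusted p ranged from 9.67e-05 to 0.0929 for Psmb8, lost without replicate 1 of either group, and from 0.00639 to 0.140 for Psmb10, lost without replicate 1 of rIL-17A. Psmb9 overlapped, with 7.77 and 11.7 CPM with rIL-17A, against 15.6 and 11.6 CPM with PBS, and was not called (-0.64, adjusted p = 0.210).

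In the regulatory particle all 6 ATPases were called lower, and they summed to 1028 to 1073 CPM with rIL-17A, against 1982 to 2375 CPM with PBS. Psmc1 was at 132 and 117 CPM with rIL-17A, against 339 and 303 CPM with PBS (log2 change of -1.51 ± 0.21 (SE), adjusted p = 0.000274). It had the smallest p of the members, followed among the ATPases by Psmc3 (-1.39) and Psmc2 (-1.28). Of the other base subunits 1 of 3 was called lower, and of the chaperones 2 of 3. The lid was mixed: 4 of 8 subunits were called lower and 1 higher, and the lid summed to 1531 to 1545 CPM with rIL-17A, against 1913 to 2100 CPM with PBS.

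Psmd3 was the member that rose, with 111 and 127 CPM with rIL-17A, against 44.1 and 37.9 CPM with PBS. Its groups did not overlap (log2 change of 1.39 ± 0.21 (SE), adjusted p = 0.000587). Psmd3 also varied widely within other groups, at 51.5, 72.5 and 130 CPM in wild-type muscle at day 7 of the time course. In wild-type muscle at day 3 it was at 173, 72.9 and 174 CPM. Psmd3 overlaps an opposite-strand gene, so part of its reads may belong there. Psmd11, chosen after its values were seen as the other lid subunit with higher CPM, was at 156 and 172 CPM with rIL-17A, against 136 and 117 CPM with PBS, and was not called.

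**Figure D5:**
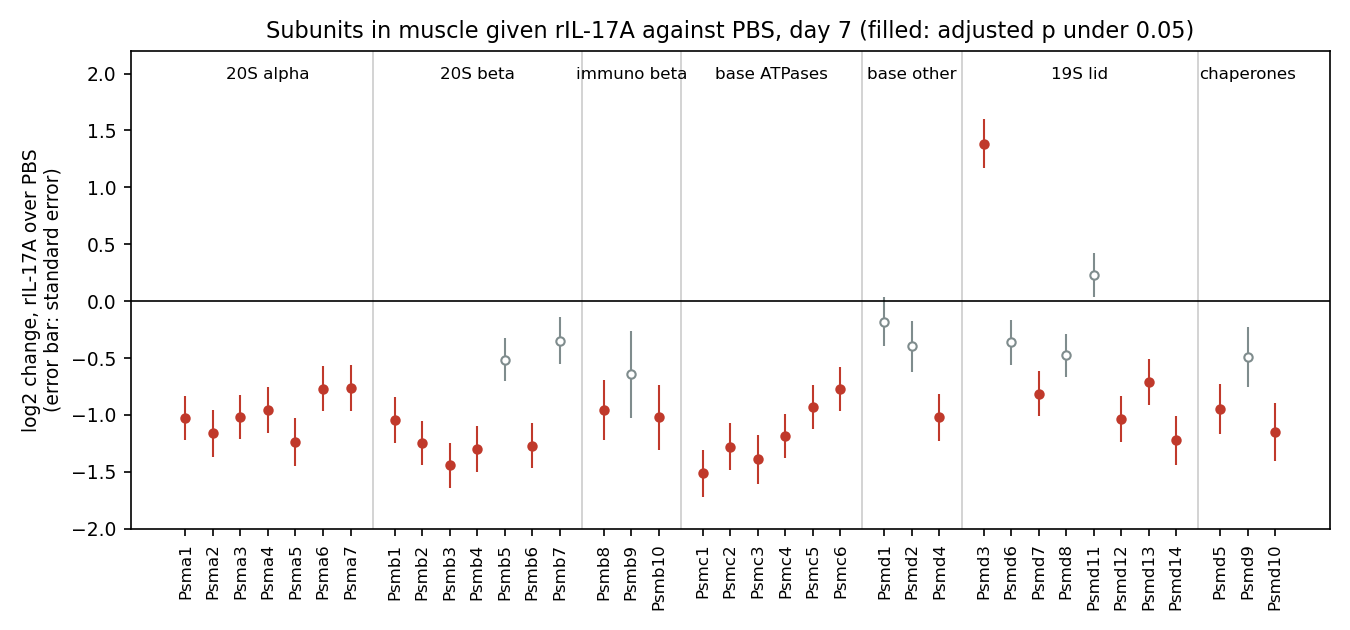
Log2 change with its standard error (y axis) of each of the 37 members tested in rIL-17A against PBS muscle at day 7 (n = 2 each), ordered along the x axis by role. Filled red points passed the test and open grey points did not: 27 filled points lie below 0 and Psmd3 lies above it at 1.39.

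Factors that build and regulate proteasomes split into opposite directions. The maturation factor Pomp averaged 110.1 ± 0.216 CPM with rIL-17A and 283 ± 45.3 CPM with PBS (SD, n = 2 each; log2 change of -1.51 ± 0.20 (SE), adjusted p = 0.000266). Of 12 assembly and associated factors 6 were called lower and 2 higher. Those higher were Nfe2l1, with 438 ± 20.6 CPM with rIL-17A and 136 ± 22.5 CPM with PBS (log2 change of 1.53 ± 0.22 (SE), adjusted p = 0.000354), and Ddi2, with 47.0 ± 4.29 and 18.2 ± 3.95 CPM (log2 change of 1.21 ± 0.28 (SE), adjusted p = 0.00591). The activator subunit Psme2 fell (30.3 ± 1.29 CPM with rIL-17A and 76.3 ± 9.60 CPM with PBS, log2 change -1.47), while Psme1 was not called (-0.28, adjusted p = 0.381). Ubb fell with a log2 change of -1.45 and Nploc4, a cofactor of the unfoldase Vcp, with -1.24, whereas the ubiquitin-activating enzyme Uba1 rose with 0.89. Of 10 MHC class I genes 3 were called lower and 1 higher, and of 9 interferon response genes tested 2 were called lower and 1 higher.

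Cell type markers differed in the same comparison. Macrophage markers summed to 480.4 to 599 CPM with rIL-17A and 1249 to 1652 CPM with PBS (4 of 6 called lower), and leukocyte markers to 73.3 to 118 CPM and 163 to 185 CPM (3 of 5 called lower). Endothelial markers summed to 277 to 294 CPM and 138 to 157 CPM (3 of 4 called higher), and myofibre markers to 138148 to 150533 CPM and 178768 to 188999 CPM (3 of 6 called lower and 1 higher). The part of these shifts in the subunit result was not tested. Over all alternatives 22 to 30 members were called.

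The day 7 comparisons of Tcrd-DTR with wild-type and of rIL-17A with PBS share no library. Of the 37 members tested in both, 34 had a log2 change above 0 in Tcrd-DTR muscle and below 0 in rIL-17A muscle, 1 was above 0 in both, 1 below 0 in both, and 1 below 0 in Tcrd-DTR and above 0 in rIL-17A muscle. Psmb8 had log2 changes of 1.16 and -0.96, Psmc2 of 0.84 and -1.28, and Psmd14 of 0.81 and -1.22. Ddi2 had -0.93 and 1.21. The share of all genes with such opposite signs was not counted, so the count of members cannot be set against it. These are descriptions with no test of the opposition, and the Tcrd-DTR values rested on few libraries as stated.

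In satellite cells sorted at day 1, no member was called between Tcrd-DTR and wild-type mice by edgeR, where 0% of all genes were called. No member had an unadjusted p under 0.05, against 719 of all 12081 genes, and DESeq2 called none. Without replicate 1 of the Tcrd-DTR cells, the library with myofibre transcripts, none was called either. Psmb5 was at 167, 179 and 167 CPM in Tcrd-DTR cells, against 198, 184 and 258 CPM in wild-type cells, and did not overlap (log2 change -0.33, adjusted p = 0.818). Psmb8 was at 21.4, 18.4 and 13.4 CPM in Tcrd-DTR cells, against 12.8, 15.5 and 21.7 CPM in wild-type cells, and overlapped. Summed markers of fibro-adipogenic progenitors (Pdgfra, Dcn, Col1a1 and Lum) differed without overlap. They were at 5170 to 7068 CPM in Tcrd-DTR cells and 3741 to 5045 CPM in wild-type cells, and their part was not tested.

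Sorted cells were set against the tissue of the same day as a description of where the subunits are found, with the caution that sorting, input and cell composition differ together and cannot be told apart. Wild-type satellite cells against wild-type muscle at day 1 had 8 of 37 members called lower, against 32.3% of all genes, and none higher, against 28.2% of all genes. Psmb8 was at 12.8, 15.5 and 21.7 CPM in satellite cells, against 52.8, 61.8 and 41.6 CPM in muscle (log2 change of -2.04 ± 0.25 (SE), adjusted p = 8.55e-06). Psmb9 was at 4.02, 3.25 and 4.98 CPM in satellite cells, against 9.93, 11.8 and 12.4 CPM in muscle (log2 change of -1.88 ± 0.35 (SE), adjusted p = 0.000308). Both were lower in every satellite cell library, and Psmb10 was not called (-0.47, adjusted p = 0.0955).

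Psmd8 was at 382, 393 and 436 CPM in satellite cells, against 1066, 962 and 837 CPM in muscle (log2 change of -1.65 ± 0.18 (SE), adjusted p = 2.81e-06). Its satellite cell values were the lower ones throughout, and the lid subunit Psmd6 fell as well (-0.78) but was not called with library size alone (adjusted p = 0.101). With library size alone, where the median of all genes was 0.34, 16 members were called higher and 3 lower. Leaving out replicate 3 of the muscle left 5 calls, and leaving out replicate 1 or replicate 2 of the satellite cells left 4, as did the replicate block. Without replicate 1 of the muscle 5 members were called higher and 5 lower, and with no filter on low counts 2 were called higher and 4 lower. Leukocyte markers summed to 1.46 to 2.79 CPM in satellite cells and 259.6 to 632 CPM in muscle, and macrophage markers to 11.7 to 16.7 CPM and 932 to 2183 CPM. Satellite cell markers summed to 2421 to 2616 CPM in satellite cells and 225 to 315 CPM in muscle. Markers of fibro-adipogenic progenitors summed to 3741 to 5045 CPM in satellite cells and 1739 to 2024 CPM in muscle. The part of other cell types in the sorted libraries was not tested.

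Muscle Vg6 cells against wild-type muscle at day 3 had 25 of 37 members called lower, against 35.8% of all genes, and 3 higher, against 32.5%. Diphtheria toxin treatment also differed between these groups and cannot be told apart from cell type. The members called higher were Psmb8 (1.90), Psmb10 (0.48) and Psmb9 (0.46). Psmb8 was at 587, 571 and 538 CPM in Vg6 cells, against 189, 154 and 127 CPM in muscle. Psmb10 had adjusted p of 0.00788 to 0.0622 over the alternatives and lost its call without replicate 2 of either group, and Psmb9, with 0.0371 to 0.0896, lost it without replicate 3 of the muscle or replicate 1 or 2 of the Vg6 cells.

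The constitutive partners went the other way in that comparison. Psmb6 was at 191, 199.6 and 211 CPM in Vg6 cells, against 570.4, 556 and 574 CPM in muscle (log2 change of -1.45 ± 0.13 (SE), adjusted p = 1.04e-06). Psmb5 (-1.01), Psmb7 (-1.28), Psmd7 (-1.73), Psmd6 (-1.40), Psma6 (-1.16), Psma4 (-1.11) and Psmd2 (-1.03) fell too. The activators Psme1 and Psme2 were higher in Vg6 cells (1.23 and 0.98), as were 9 of 10 MHC class I genes. Macrophage markers summed to 4.43 to 18.1 CPM in Vg6 cells and 7222 to 12159 CPM in muscle, and the part of cell composition was not tested.

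Members with few counts complete the set. Psma8 was at 0 to 3.44 CPM and passed the filter in the time course alone, and Psmb11, the thymus-specific beta subunit, was at 0 to 3.50 CPM and was tested in none. No difference in Psmb11 was detectable at this depth.

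Over the 23 time course libraries the genes whose log2(CPM + 1) ran most like the mean of Psmb8, Psmb9 and Psmb10, of 18226 genes compared, were Anxa5 (Pearson r = 0.985), Aif1 (0.984), Tmsb4x (0.982), Crip2 (0.982) and Dap (0.980). Those most like the mean of Psmb5, Psmb6 and Psmb7 were D8Ertd738e (0.952), Mrpl32 (0.930), Pfdn2 (0.903), Emc4 (0.900) and Mrps7 (0.895). Aif1, a macrophage-lineage gene, was at 0.699 to 134 CPM. The libraries share days, so these values describe likeness over days and are no test.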

How the data were processed

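The authors deposited 1 table of raw counts per gene symbol, in whole numbers. The tools and build listed are STAR 2.7.3a, featureCounts, Subread 2.0.0, mm10, per the submitters' processing notes. No source used here gives the kit, the annotation or the strand setting. All columns matched the labels of 1 library each.

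Groups came from the labels. Each difference came from edgeR's quasi-likelihood test (edgeR 4.0.16, R 4.3.3; TMM scaling and filterByExpr with minimum count 10 and minimum total 15), with Benjamini-Hochberg adjustment over all genes tested. The 23 time course libraries shared 1 fit, and the other comparisons used their own libraries. The scripts were tested on simulated data. Alternatives were DESeq2 1.42.0, its size factors, library size alone, no filter, a replicate block, leaving out each of 39 libraries and, chosen after seeing the data, leaving out the libraries that stand apart. Counts carry PCR copies, and p-values weigh each difference against the spread between the libraries of its fit. In the time course that spread was estimated over all 23 libraries, so calls at 1 day also rest on the spread of other days.

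The members, the 23 lists (139 genes) and the markers were chosen with earlier results of these data known. Named were Psmb5 to Psmb10, up to 6 further members in each direction with the smallest p among called genes whose groups do not overlap and average at least 5 CPM in the higher group, up to 4 called genes per other list, and the 5 most alike genes by correlation of log2(CPM + 1). Results for some genes of the lists are not reported here. Gene positions came from the mm10 annotation provided, and promoters from RefSeq.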

Additional observations from a re-analysis of the deposited data

How the results depend on the processing

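Over 2721 recomputed values of 250 calls of named genes, 2504 kept their direction and their side of the threshold, 213 kept only their direction and 4 changed sign, all with library size alone as the scale; 178 calls held throughout. The sign changes were Psmb7 (-0.023), Psmd4 (-0.13) and Nploc4 (-0.11) in wild-type muscle at day 7 against day 3, and Nploc4 (-0.0068) in the same comparison in Tcrd-DTR muscle; the median of all genes moved by -0.74 and -1.20 there. Counts of called members moved by over 1.5 times as follows. For muscle against colon Vg6 cells (8) they were 5 with library size alone, 4 with no filter and 4 to 7 with 1 library left out. For Tcrd-DTR against wild-type muscle at day 7 (3) they were 7 by DESeq2, 1 with library size alone, 1 without the libraries that stand apart, 0 in a fit of that day alone, 0 with the replicate block and 0 to 6 with 1 library left out. With 1 library left out they were 8 to 12 for wild-type day 3 against day 1 (13), 18 to 30 for wild-type day 14 against day 7 (29), 4 to 12 for Tcrd-DTR day 3 against day 1 (4), 0 to 1 for the interaction (0) and 4 to 10 for satellite cells against muscle (8). Tcrd-DTR day 3 against day 1 gave 8 by DESeq2 and 13 without the libraries that stand apart. Tcrd-DTR day 7 against day 3 (29) gave 15 with library size alone. The interaction gave 2 by DESeq2 and 1 with no filter. Satellite cells against muscle gave 19 with library size alone and 4 with the replicate block. Replicate numbers were shared by the groups, and deviations of same-numbered libraries correlated at -0.066 to 0.192. The satellite cell titles also carry another number in brackets, which matched between the genotypes for replicate 1 alone. With 2 or 3 libraries a group these values cannot decide whether same-numbered samples were paired. The replicate block ended 8 of the 250 calls. The immunoproteasome share depends on length scaling. With no length scaling it was 68.6% and 75.2% in muscle and colon Vg6 cells, in Tcrd-DTR and wild-type muscle 11.8% and 12.2% on day 1, 22.9% and 25.3% on day 3, 7.59% and 5.45% on day 7 and 4.79% and 4.97% on day 14, 8.01% and 7.82% with rIL-17A and PBS, and 7.43% and 6.51% in Tcrd-DTR and wild-type satellite cells. With the longest coding length it was 67.0% and 73.9% in Vg6 cells, 11.5% in wild-type muscle on day 1, 22.0% and 24.3% in both genotypes on day 3, 7.19% and 5.14% on day 7, 4.56% and 4.78% on day 14, 7.65% and 7.31% with rIL-17A and PBS, and 6.94% and 6.05% in satellite cells. With 2 or 3 libraries a group, and 1000 cells or 2 ng of RNA behind each, members at a few CPM such as Psma8 and Psmb11 cannot be compared.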
